A study of Mus musculus with 6 samples.

Results

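Broad H3K4me3 domains are stretches of chromatin in which the trimethyl mark on lysine 4 of histone H3 runs far past the start of a gene. Here they were defined as H3K4me3 regions of 4000 bp or more, where a region is the union of peaks that overlapped by at least 1 bp between the 2 H3K4me3 libraries, with a peak from each. Of 15573 such regions, 545 were broad, which is 3.50% of them, and together they held 2.83 Mb of the 30.3 Mb under H3K4me3 regions (9.33%). The comparison set was the 10057 narrower regions that had an end of an annotated gene inside. The broad regions were chosen by peak widths in the H3K4me3 libraries, so widths and H3K4me3 enrichments are given as a description and were not tested.

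The peaks came from CUT&RUN, in which an antibody tethers a nuclease to chromatin in permeabilised cells and the released fragments are sequenced, in MIN6 cells, an insulinoma line derived from mouse pancreatic beta cells. The antibodies were of 3 kinds, and no library carried any other treatment or genotype: an antibody to H3K4me3 as the positive control (n = 2 replicates), an antibody to the endogenous transcription factor MafA (n = 2) and non-specific IgG as the negative control (n = 2, not analysed here). The labels do not say whether replicates were separate cultures, so the spread between them may be technical. MIN6 is a single line, and its peaks describe that line and not an islet.

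H3K4me3 is placed by SET1 and MLL methyltransferases, and at most active genes it forms a compact peak around the start, over CpG-rich sequence. In many cell types the widest domains have been described over genes that fix the identity of that cell, and a broad domain usually extends from the promoter into the gene body. MafA is a basic leucine zipper factor of mature beta cells that binds the Maf recognition element, whose core is TGCTGA, and drives the insulin gene among others.

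The promoter sequence at broad regions ranged from CpG-poor to CpG-rich, as 4 beta cell genes show. Each sequence is the 250 bases before a RefSeq start (build GRCm38.p6), written 5′ to 3′ along the gene, with CpG dinucleotides in capitals. Iapp lies at chr6:142298175-142298424 on the plus strand, Pdx1 at chr5:147269847-147270096 on the plus strand, Isl1 at chr13:116309689-116309938 on the minus strand and Pcsk2 at chr2:143545883-143546132 on the plus strand.
Iapp: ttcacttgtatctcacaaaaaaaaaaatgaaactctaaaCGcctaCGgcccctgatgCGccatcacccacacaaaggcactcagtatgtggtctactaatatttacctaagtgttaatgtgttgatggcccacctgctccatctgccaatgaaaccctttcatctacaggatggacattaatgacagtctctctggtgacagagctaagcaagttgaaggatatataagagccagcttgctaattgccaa
Pdx1: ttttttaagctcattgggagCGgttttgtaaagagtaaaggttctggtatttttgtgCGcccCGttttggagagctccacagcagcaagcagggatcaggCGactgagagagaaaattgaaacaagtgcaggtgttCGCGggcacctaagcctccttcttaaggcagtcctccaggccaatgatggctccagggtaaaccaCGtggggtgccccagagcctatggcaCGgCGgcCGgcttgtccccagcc
Isl1: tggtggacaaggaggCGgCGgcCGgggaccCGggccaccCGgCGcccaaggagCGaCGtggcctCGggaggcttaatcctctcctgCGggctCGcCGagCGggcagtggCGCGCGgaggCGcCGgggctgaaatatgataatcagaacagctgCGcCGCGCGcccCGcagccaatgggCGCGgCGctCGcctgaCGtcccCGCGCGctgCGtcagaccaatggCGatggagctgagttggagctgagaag
Pcsk2: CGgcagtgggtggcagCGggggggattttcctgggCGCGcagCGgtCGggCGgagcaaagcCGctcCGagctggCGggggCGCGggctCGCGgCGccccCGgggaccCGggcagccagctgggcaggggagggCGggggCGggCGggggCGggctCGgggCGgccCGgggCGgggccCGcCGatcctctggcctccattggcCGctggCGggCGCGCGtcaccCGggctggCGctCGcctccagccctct
The Iapp stretch held 3 CpGs at 42.8% G and C, the Pdx1 stretch 10 at 54.8%, the Isl1 stretch 33 at 71.2% and the Pcsk2 stretch 35 at 82.4%. Iapp encodes amylin, Pdx1 and Isl1 are homeodomain factors of islet cells, and Pcsk2 is a prohormone convertase. All 4 genes nevertheless lay in H3K4me3 regions wide enough to count as broad, at 4933 bp for Iapp, 10896 bp for Pdx1, 13869 bp for Isl1 and 6991 bp for Pcsk2.

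As a group, promoters at broad regions were about as CpG-rich as those at narrower ones. Over 746 RefSeq promoter windows of 300 bases (250 before to 50 after a start) of 561 genes with an end in a broad region, the median ratio of observed to expected CpG was 0.801 (quartiles 0.614 and 0.927), with a median of 23 CpGs. At narrower regions the median ratio was 0.769 over 12070 windows, with 21 CpGs. Genes without an end in an H3K4me3 region had a median of 0.228 over 20025 windows, with 4 CpGs. The difference of 0.03 between broad and narrower regions is small beside the quartile range within either class, and the promoter windows were read only as a description.

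The Maf core TGCTGA, read on both strands, was about as frequent at broad as at narrower regions. It occurred in 14.9% of windows at broad regions (95% Wilson interval 12.5 to 17.6), in 14.9% at narrower regions (14.2 to 15.5) and in 19.5% of all 32841 windows. The longer match TGCTGAC, which contains the first, occurred in 4.56% at broad regions (3.28 to 6.30), 3.36% at narrower regions (3.05 to 3.69) and 4.67% of all windows. For windows that lay inside a region by their own start, the shares of TGCTGAC were 5.05% at broad regions (3.72 to 6.83) and 3.15% at narrower ones (2.86 to 3.47). These intervals do not overlap, but the 772 broad windows came from 599 genes. Windows of neighbouring starts overlap, so the intervals may be too narrow, and the difference was not tested. Windows whose start lay in no H3K4me3 region had TGCTGAC in 5.62%. Intervals on shares cover counting error only, throughout. A pair of islet factor promoters at broad regions with core matches are shown with TGCTGA or its reverse complement TCAGCA in capitals. Neurod1 lies at chr2:79456637-79456886 and Nkx6-1 at chr5:101664712-101664961, both on the minus strand.
Neurod1: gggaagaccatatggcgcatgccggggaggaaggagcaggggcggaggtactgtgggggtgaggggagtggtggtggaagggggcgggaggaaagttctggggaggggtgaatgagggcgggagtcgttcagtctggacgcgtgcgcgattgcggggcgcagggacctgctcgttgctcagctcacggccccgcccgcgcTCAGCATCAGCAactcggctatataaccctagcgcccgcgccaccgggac
Nkx6-1: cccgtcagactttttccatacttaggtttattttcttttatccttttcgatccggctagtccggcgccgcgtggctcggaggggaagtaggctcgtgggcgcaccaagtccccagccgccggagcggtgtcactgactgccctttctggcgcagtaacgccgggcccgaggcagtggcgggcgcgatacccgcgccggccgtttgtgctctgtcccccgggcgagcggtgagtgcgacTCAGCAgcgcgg
Neurod1, a basic helix-loop-helix factor, had 2 adjoining matches and Nkx6-1, a homeodomain factor, had 1. Both stretches were overlapped by a MafA peak in replicate 2 and not in replicate 1. At Neurod1 that peak (fold enrichment 3.68) covered the core matches. At Nkx6-1 it was weaker (2.24) and overlapped the stretch but not the core match.

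The cell identity in the labels was read from the regions themselves. Of 9 beta cell markers, 6 had an end in an H3K4me3 region (Ins2, Iapp, Pdx1, Nkx6-1, Mafa and Slc30a8), and 5 of these regions were broad, all but that of Ins2. Ins1, Slc2a2 and G6pc2 had no end in an H3K4me3 region, although G6pc2 had a RefSeq start in a broad one. Of 5 markers of other islet cells only Gcg had an end in an H3K4me3 region, which was narrower, and of 7 markers of other tissues none did. On a longer list of 17 such markers, 2 had one, Gcg and Sftpc. The Sftpc region was also narrower, at 3664 bp, with fold enrichments of 32.0 in replicate 1 and 28.0 in replicate 2. The lists held 16020 and 16904 H3K4me3 peaks in replicates 1 and 2, of which 497 and 505 were 4000 bp or wider on their own, and 33013 and 42747 MafA peaks. Fragments recovered from the peak statistics had medians at the summit of 759 and 263 for H3K4me3 replicates 1 and 2, against 25 and 46 for MafA replicates 1 and 2, so MafA peaks rest on far fewer fragments.

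Most broad regions were wide in each replicate on its own. The median width was 4669 bp (quartiles 4328 and 5355), and 83 regions reached 6000 bp, 29 reached 8000 bp and 16 reached 10000 bp. Narrower gene-end regions had a median of 2057 bp (quartiles 1560 and 2615). In 482 of the 545 the peaks of both replicates summed to 4000 bp or more, and in 7 neither did. In 54, several peaks of at least 1 replicate were joined through a peak of the other. The larger replicate width exceeded the smaller by a median factor of 1.02, with a 95th percentile of 1.11. At the threshold, the last regions inside were Foxo3 at 4005 bp and Hemk1 at 4010 bp, and the first outside were Dpf3 and Gm52381 at 3999 bp and Hnrnpa3 at 3998 bp. The threshold therefore cut a continuous range of widths.

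**Figure D1:**
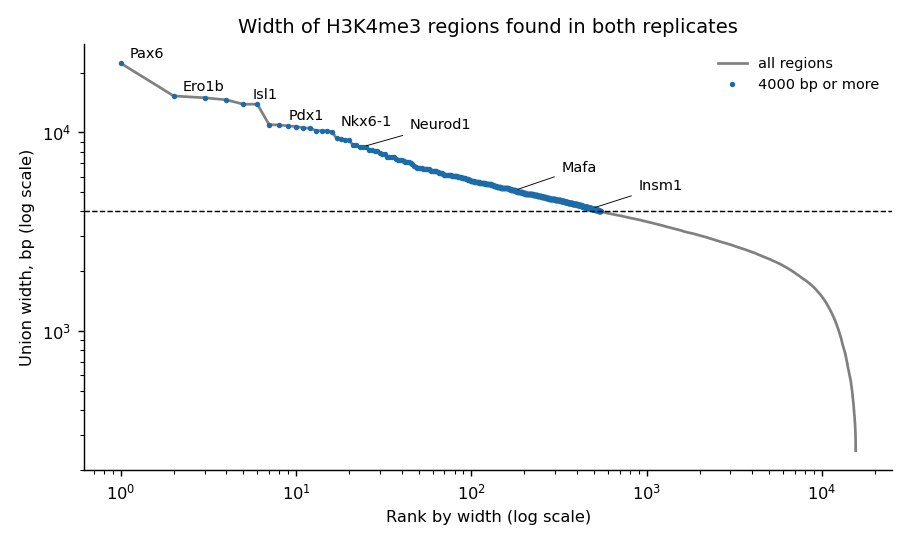
Width of the 15573 H3K4me3 regions in bp (y axis, log scale) against rank by width (x axis, log scale), with the 545 regions of 4000 bp or more as blue points and the dashed line at 4000 bp. Pax6 stands alone at 22268 bp, the regions of Isl1, Pdx1 and Nkx6-1 lie among the 16 that reach 10000 bp, and no step separates broad regions from the rest.

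Height did not grow with width among broad regions. H3K4me3 fold enrichment at the strongest summit had a median of 23.1 in replicate 1 (quartiles 18.6 and 27.2) and 20.0 in replicate 2 (16.8 and 23.2). In narrower gene-end regions the medians were 18.0 and 16.4. Those of 3000 to 4000 bp, next below the threshold, already had medians of 23.0 and 19.5, close to those of broad regions. Across the 545 broad regions the Spearman correlation of width with mean enrichment was -0.09, whereas across the 10057 narrower regions it was 0.52. Both are descriptions over regions that share libraries and background.

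The widest region of all was over Pax6, a paired homeodomain factor of islet endocrine cells. It spanned chr2:105665843-105688110 (22268 bp), measuring 21992 bp in replicate 1 and 22140 bp in replicate 2, with H3K4me3 fold enrichments of 28.9 and 28.1. A further broad region over the non-coding gene Paupar began 2065 bp away from it.

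Islet transcription factors were concentrated at the top of the width order. Of the 16 regions of 10000 bp or more, 6 held an end of a gene on a list of 24 islet factors: Pax6, Isl1, Foxa2, Pdx1, Nkx2-2 and Nkx6-1. Isl1 (chr13:116298647-116312515) measured 13587 bp in replicate 1 and 13600 bp in replicate 2, where it was split into 2 peaks. Foxa2, a forkhead factor (chr2:148036534-148047483), measured 10712 and 10950 bp, and Pdx1 (chr5:147268202-147279097) 10827 and 10880 bp. Nkx2-2 (chr2:147185339-147195841) measured 10500 and 10490 bp, with a further broad region over its antisense gene Nkx2-2os only 241 bp away. Nkx6-1 (chr5:101655811-101665878) measured 9892 bp in replicate 1 and 9712 bp in replicate 2, where it was split into 2 peaks, and reached 10000 bp only as a union. Summed peak widths of the replicates thus differed by a few percent at most for these factors. The splits matter at Isl1, whose region was 7686 bp wide without replicate 1, and at Nkx6-1, where the stretch common to both replicates was 8533 bp.

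The other islet factors with broad regions were narrower. Neurod1 measured 8418 bp in replicate 1 and 7887 bp in replicate 2, where it was split into 3 peaks. Mafa itself measured 5106 and 4956 bp, Mnx1, a homeodomain factor, 4513 and 4656 bp, and Insm1, a zinc finger factor, 4061 and 4139 bp. In all, 10 of the 17 listed islet factors that had an end in an H3K4me3 region lay at a broad one (58.8%, 95% Wilson interval 36.0 to 78.4). Over all 11012 protein-coding genes with an end in an H3K4me3 region, 564 lay at a broad one, which is 5.12%, and 2.58% of all 21900 protein-coding genes did. The 7 at narrower regions included Rfx6, Hnf4a, Glis3 and Nkx6-2. The lists were assembled with results of these data known, so their shares describe and do not test.

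Genes of insulin secretion and granule function were the next most frequent, with 11 of 25 at broad regions (44%, 26.7 to 62.9). Ero1b, an oxidase of the endoplasmic reticulum that forms disulfide bonds, had the second widest region of all (chr13:12565272-12580530), at 15223 bp in replicate 1 and 14152 bp in replicate 2. Chga, which encodes the granule protein chromogranin A, measured 5446 and 5622 bp, and Chgb, its relative, 4596 and 4813 bp. Kcnj11, the pore of the KATP channel, measured 4686 and 4419 bp, and Slc30a8, the granule zinc transporter, 4474 and 4448 bp. The receptors Glp1r and Ffar1 measured 4534 and 4570 bp and 4284 and 4319 bp. Pcsk1, a prohormone convertase, measured 4075 and 3973 bp. Iapp, Pcsk2 and the SNARE protein gene Snap25 completed the list. Ins2, at 3326 bp, and Abcc8, the regulatory subunit of the KATP channel, at 3940 bp, fell short of the threshold.

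Other lists contributed smaller shares, all above the 5.12% of marked genes except those with none. Tumour suppressor and cell cycle genes gave 8 of 22 (36.4%), among them Cdkn2c, Cdkn1b and Cdkn2a, which encode inhibitors of cyclin-dependent kinases, Ccnd2, Trp53, Stk11 and Arid1a. Cdkn2c had the fourth widest region (chr4:109653918-109668503), at 13844 bp in replicate 1 and 14586 bp in replicate 2, which covered the whole 5881 bp gene. Immediate early and feedback genes gave 9 of 28 (32.1%), among them Fosl2 at 6231 and 6078 bp, Dusp4 at 6105 and 6096 bp, Junb at 5432 and 5599 bp and Myc at 4873 and 4872 bp. Fosl2, Junb and Myc encode transcription factors, and Dusp4 a phosphatase of MAP kinases.

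Genes of H3K4 methylation itself gave 6 of 27 (22.2%). Setd1b, a SET1 methyltransferase, shared with the small GTPase gene Rhof a region of 10725 and 10786 bp in replicates 1 and 2. Kmt2a and Kmt2c, methyltransferases of the MLL family, measured 4683 and 4677 bp and 3928 and 4008 bp. Hcfc1, Ing1 and Ing2, which encode proteins of chromatin complexes, completed the list. Genes of protein folding in the endoplasmic reticulum gave 4 of 16 (25%): Ddit3, Hspa5, Hsp90b1 and Atf4.

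Housekeeping genes were not free of broad regions. Of 14 with an end in an H3K4me3 region, 4 were at broad ones (28.6%, 11.7 to 54.6), among them Gapdh at 5112 bp in replicate 1 and 5131 bp in replicate 2, Tbp and Pgk1. The interval overlaps that of the islet factors. None of 19 cytosolic ribosomal protein genes was at a broad region, with an upper bound of 16.8%, and none of 6 factors of other lineages, with an upper bound of 39.0%. Of the 30 factors of other lineages listed, 24 had no end in any H3K4me3 region, although 1 of these, Pax2, had a RefSeq start in a broad one.

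**Figure D2:**
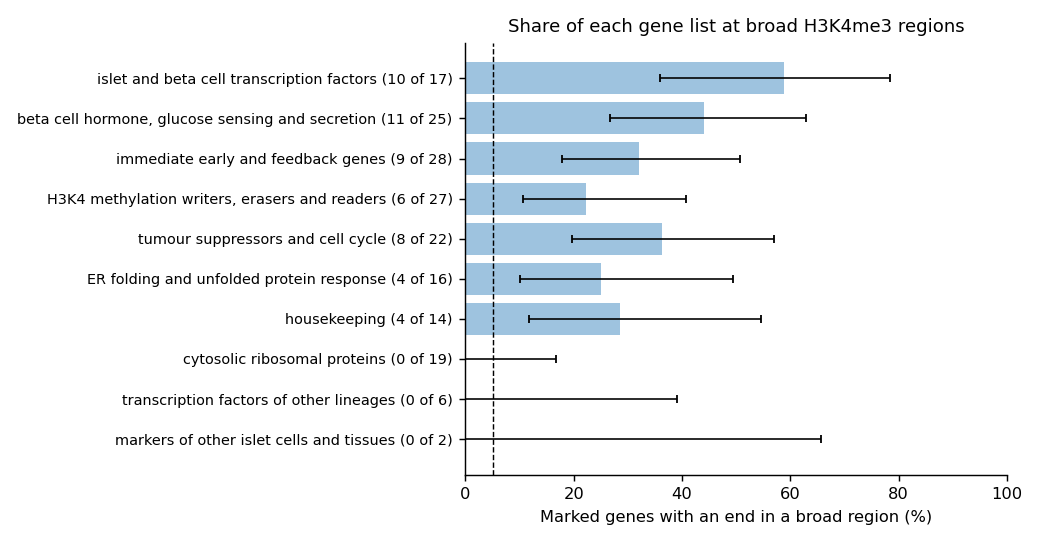
Share of each gene list at broad regions, in percent of the members with an end in any H3K4me3 region (bars), with 95% Wilson intervals (lines) and the 5.12% of all marked protein-coding genes (dashed line). Islet factors (10 of 17) and secretion genes (11 of 25) have the longest bars, housekeeping genes reach 28.6%, and 3 lists have none.

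Of the remaining regions among the 15 widest, all but the one on chromosome 15 without a gene covered genes outside these lists. Igf2, an imprinted growth factor gene, lay with Igf2os and Mir483 in a region of 14830 bp in replicate 1 and 14939 bp in replicate 2 (chr7:142653909-142668853). Etv1, an ETS factor, measured 10698 and 10674 bp. Tshz1 and Zadh2 shared a region of 10541 and 10514 bp, and Zfp516 measured 10111 and 10206 bp. The nuclear non-coding RNA gene Malat1 measured 10140 and 10031 bp. Spc25, a kinetochore gene, measured 10117 and 9655 bp. The neighbouring G6pc2, which encodes an islet glucose-6-phosphatase subunit, had no gene end in an H3K4me3 region but had a RefSeq start in a broad one, which measured 6327 and 6314 bp. G6pc2 was singled out after its values were seen.

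Nearly all broad regions touched an annotated gene. An end of any gene lay inside 477 of 545 (87.5%, 84.5 to 90.0), against 66.9% of the 15028 narrower regions (66.2 to 67.7), and a wider region has more room for one. An end of a protein-coding gene lay inside 443 (81.3%). Of the 68 with no gene end, 46 contained a RefSeq start, as at Pax2, a paired-box factor (7677 bp in replicate 1 and 8111 bp in replicate 2), and Elavl4, a neuronal RNA-binding protein gene (7525 and 7529 bp). The widest of the other 22 was at chr15:85668661-85682529, measuring 13869 bp in replicate 1 and 13227 bp in replicate 2, summed over 3 separate peaks. Without replicate 1 it was 8409 bp wide, and its nearest gene end was that of Lncppara at 21244 bp. These 22 lay a median of 7406 bp from the nearest gene end.

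Broad regions held more than 1 protein-coding gene more often than narrower ones. Among regions with any protein-coding gene end, 109 of 443 broad regions had ends of at least 2 such genes (24.6%, 20.8 to 28.8), against 14.0% of narrower ones (13.3 to 14.7), which have less room for them. A total of 59 protein-coding genes lay wholly inside one of the 545 broad regions. Inside the 15028 narrower regions, which have less room for a whole gene, there were 123. Cdkn2c was the longest of the 59 at broad regions and Pdx1, at 5752 bp, the next.

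The extra width lay mainly downstream of the start. In 229 broad regions with a single RefSeq start, the mark ran a median of 1400 bp upstream (quartiles 931 and 2072) and 3220 bp downstream (2593 and 3892), and the downstream part was the larger in 188 (82.1%, 76.6 to 86.5). In 5577 narrower regions the medians were 609 and 1286 bp and the downstream part was the larger in 87.7%. Ero1b was uneven in this way, with 611 bp upstream and 14648 bp downstream. Mef2d, a MADS-box factor gene, and Bcl11a, a zinc finger factor gene, both named after their values were seen, ran the other way, with 4760 bp upstream against 2590 bp downstream and 5121 bp against 2140 bp.

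Several broad regions contained microRNA genes, and the mature products are shown because the regions are otherwise named only by their host genes. Of 17 microRNA genes with an end in 15 broad regions, 16 had a mature sequence in RefSeq (build GRCm38.p6). Those printed are from the 4 widest such regions and the one with the let-7 family member, with the seed (bases 2 to 8) in capitals.
mmu-miR-483-3p: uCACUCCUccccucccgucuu
mmu-miR-7a-5p: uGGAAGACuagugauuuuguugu
mmu-miR-15b-5p: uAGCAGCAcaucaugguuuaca
mmu-miR-16-5p: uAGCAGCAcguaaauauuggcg
mmu-miR-129-5p: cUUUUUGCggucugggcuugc
mmu-let-7i-5p: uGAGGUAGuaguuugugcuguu
miR-15b-5p and miR-16-5p share the seed AGCAGCA and lie at chr3:69009775-69009796 and chr3:69009918-69009939 on the plus strand, in the 6679 bp region of Smc4 and Ift80. miR-7a-5p, an islet-enriched microRNA, lies at chr7:78888295-78888317 on the plus strand, and its gene Mir7-2 was the only one with an end in a 7068 bp region with H3K4me3 fold enrichments of 18.3 in replicate 1 and 17.0 in replicate 2. miR-129-5p lies at chr2:94241419-94241439 on the minus strand, in a 6547 bp region with fold enrichments of 9.87 and 11.9. miR-483-3p lies at chr7:142654932-142654952 on the minus strand, inside the Igf2 region, and let-7i-5p at chr10:122985698-122985719 on the minus strand, in a 4915 bp region of its own. The peak lists do not measure whether these microRNAs were made.

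MafA peaks lay over most broad regions. A MafA peak of replicate 1 lay over 360 of 545 (66.1%, 62.0 to 69.9) and one of replicate 2 over 466 (85.5%, 82.3 to 88.2). In narrower gene-end regions the shares were 35.8% and 56.6%. The mean difference was 29.6 percentage points (SD 0.942 between the 2 MafA libraries), in the same direction in 2 of 2 libraries. An exact two-sided permutation test of the 4 library shares gave p = 0.333, the smallest that 2 values a class allow. The values of both classes come from the same 2 libraries.

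A MafA region found in both replicates lay over 355 broad regions (65.1%, 61.0 to 69.0), against 33.5% of narrower gene-end regions and 37.4% of all 15573 H3K4me3 regions. The difference was 31.6 percentage points (95% Newcombe interval 27.4 to 35.6). In 237 broad regions there was 1 such MafA region, in 109 there were 2, in 7 there were 3, and in 2, those of Spc25 and Irf2bp2, there were 4. No MafA peak of either replicate lay over 77 broad regions (14.1%).

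A wide region has more room for a peak, so MafA was also measured per base and in a window of fixed size around the H3K4me3 summits. MafA peaks of replicate 1 covered 15.0% of the bases of broad regions and 10.6% of those of narrower ones, and peaks of replicate 2 covered 27.4% and 20.9%. The difference averaged 5.41 percentage points (SD 1.49), and the exact two-sided permutation test gave p = 0.667, since the 2 libraries differed from each other by more than the classes did.

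Around the H3K4me3 summits, no excess was detectable when those of both replicates had to have a MafA summit nearby. The summits of the replicates can lie apart in a broad region, as at Nkx6-1, at 3824 and 2641 bp from its centre. Where they do, this demand is stricter. A MafA summit lay within 1 kb of the H3K4me3 summits of both replicates in 35.0% of broad regions for MafA replicate 1 (31.2 to 39.1) and 51.2% for replicate 2 (47.0 to 55.4). In narrower regions the shares were 33.2% and 53.6%. The library differences were 1.88 (95% Newcombe interval -2.11 to 6.08) and -2.37 percentage points (-6.67 to 1.91), with opposite signs. Their mean was -0.244, with an exact two-sided permutation p = 1. With either H3K4me3 replicate left out the mean was positive. Within 500 bp of the summits of both it was -10.3. With the 1 kb window placed around protein-coding gene ends in place of summits it was positive, at 12.8 (55.6% against 42.8%).

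**Figure D3:**
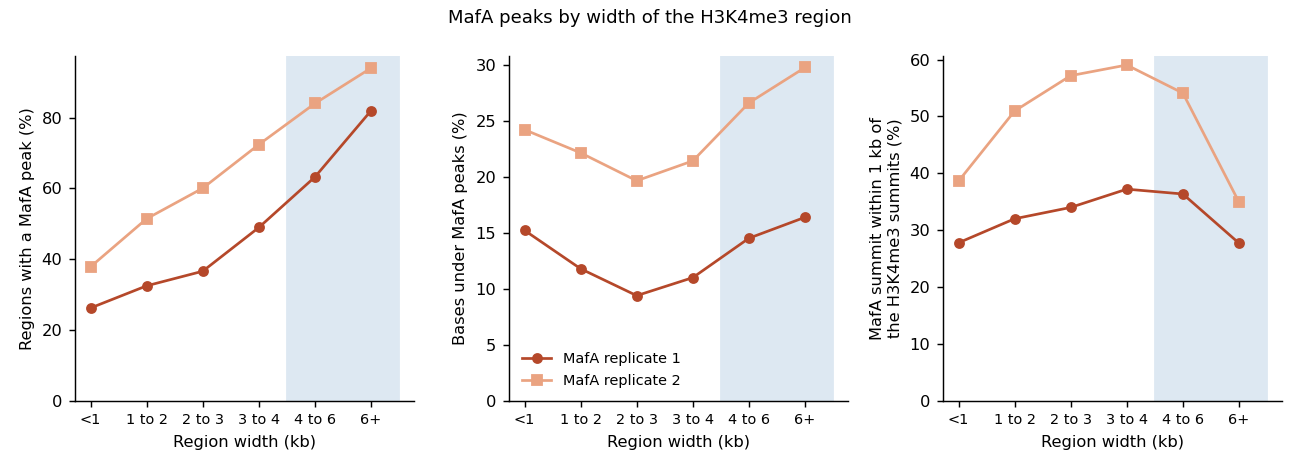
MafA peaks by width of the H3K4me3 region in kb (x axis; narrower regions are those with a gene end, broad ones are shaded), for MafA replicate 1 (circles) and replicate 2 (squares): percent of regions with a peak (left), percent of bases under peaks (middle) and percent with a MafA summit within 1 kb of the H3K4me3 summits (right). The left share climbs over every width class, to 81.9% and 94.0% at 6000 bp or more, the middle one is lowest at 2000 to 3000 bp, and the right one falls again in the widest class, to 27.7% and 34.9%.

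MafA summits were sparser in the middle of broad regions than in the middle of narrower ones. Of 551 replicate 1 summits inside broad regions, 48.6% were in the outermost 20% on either side, together 40% of the length (44.5 to 52.8), and 14.5% in the middle 20% (11.8 to 17.7). Of 744 replicate 2 summits the shares were 43.8% (40.3 to 47.4) and 15.1% (12.7 to 17.8), so the outer share of replicate 2 was close to the 40% that an even spread gives. In narrower regions the outer parts held 25.6% and 21.4%, and the middle part 23.9% and 27.0%. The median distance from a MafA summit to the nearest H3K4me3 summit of its region was 1229 bp in replicate 1 and 1142 bp in replicate 2 for broad regions, against 349.5 and 264 bp for narrower ones. Wider regions leave room for longer distances, and this was not corrected for. H3K4me3 summits themselves kept to the middle 20% in 34.3% and 32.5% of broad regions, against 53.8% and 53.0% of narrower ones. These shares were not tested over libraries.

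**Figure D4:**
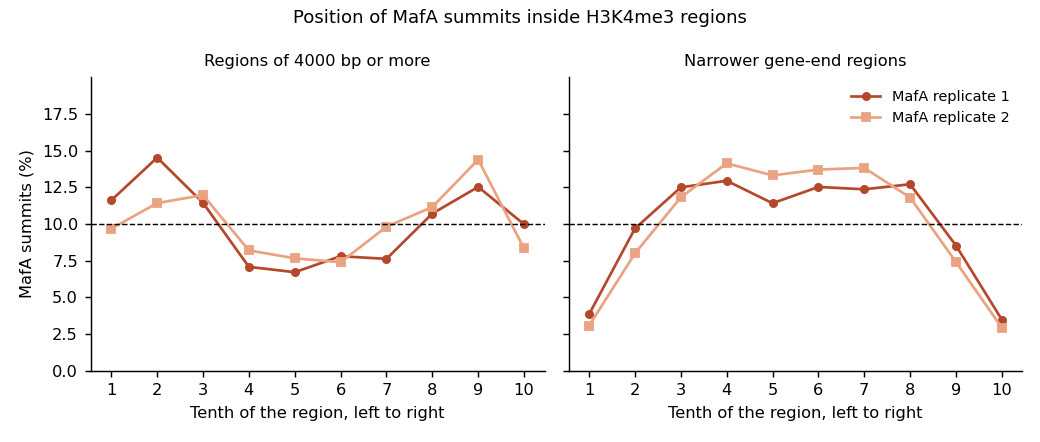
Share of MafA summits (y axis, percent) in each of 10 equal bins of the H3K4me3 region from left to right along the chromosome (x axis), for broad regions (left) and narrower gene-end regions (right), with the dashed line at an even 10%. In broad regions both replicates (circles and squares) dip in the middle bins, where narrower regions have their plateau, and the outermost bins of narrower regions hold under 4% each.

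MafA enrichment differed little, and its direction was not the same for the strongest peak of a region as for summits within the same part of a region. The median of the strongest MafA fold enrichment over a region was 4.58 in replicate 1 and 4.29 in replicate 2 for broad regions with a peak, and 3.89 and 3.51 for narrower ones, a log2 ratio of 0.26. More peaks per region give the strongest one more chances, and this was not corrected for. Taken per summit within the outer or the middle part, medians were lower in broad regions, and a median over all summits was not computed. In the outer parts they were 3.96 in replicate 1 and 3.74 in replicate 2, against 4.19 and 3.91 in narrower regions. In the middle part they were 3.51 and 3.17, against 3.63 and 3.23.

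MafA enrichment was highest at Per2, Papss2, Tubb5, Pdx1 and Neat1. Per2, a clock gene, had fold enrichments of 38.5 in replicate 1 and 37.5 in replicate 2, and its peaks covered 81.1% and 93.6% of the 5314 bp region. Tubb5, a tubulin gene, had 32.2 and 30.7. At Papss2, which makes the sulfate donor PAPS, at Pdx1 and at the non-coding RNA gene Neat1, the joined MafA region overlapped the broad region but both of its summits lay outside it. Its enrichments were 26.3 and 30.8 at Papss2, 18.2 and 25.0 at Pdx1 and 19.7 and 21.7 at Neat1. The Pdx1 MafA region spanned chr5:147265984-147270387 and so began before the H3K4me3 region and ended inside it.

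At the islet factors, MafA enrichment spanned a wide range. Of the 10 with broad regions, 7 had a MafA region of both replicates, a share near the 65.1% of all broad regions, and the exceptions were Mafa, Mnx1 and Insm1. That share rose with width, from 61.9% of broad regions under 6000 bp to 83.1% of those at or above it. The 7 were all 8471 bp or wider, and the exceptions were all 5106 bp or narrower. Mafa, the gene of the factor itself, had no MafA peak over its broad region in either replicate. Mnx1 had 1 peak and Insm1 2 peaks, in replicate 2 only. At Pax6 the MafA region with the highest mean enrichment of 3 reached 2.89 in replicate 1 and 3.17 in replicate 2, and at Neurod1 2.74 and 3.68. Nkx6-1 reached 6.03 and 6.13, Foxa2 5.47 and 4.59, and Nkx2-2 7.62 and 8.13. At Isl1 the enrichments were 8.18 and 8.22, with both summits outside the broad region and no replicate 1 peak over it. Only Pdx1, with 18.2 and 25.0, was above 10 in both replicates, and there too both summits lay outside the broad region. The strongest MafA summits inside the Pdx1 region reached 3.19 in replicate 1 and 3.41 in replicate 2.

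**Figure D5:**
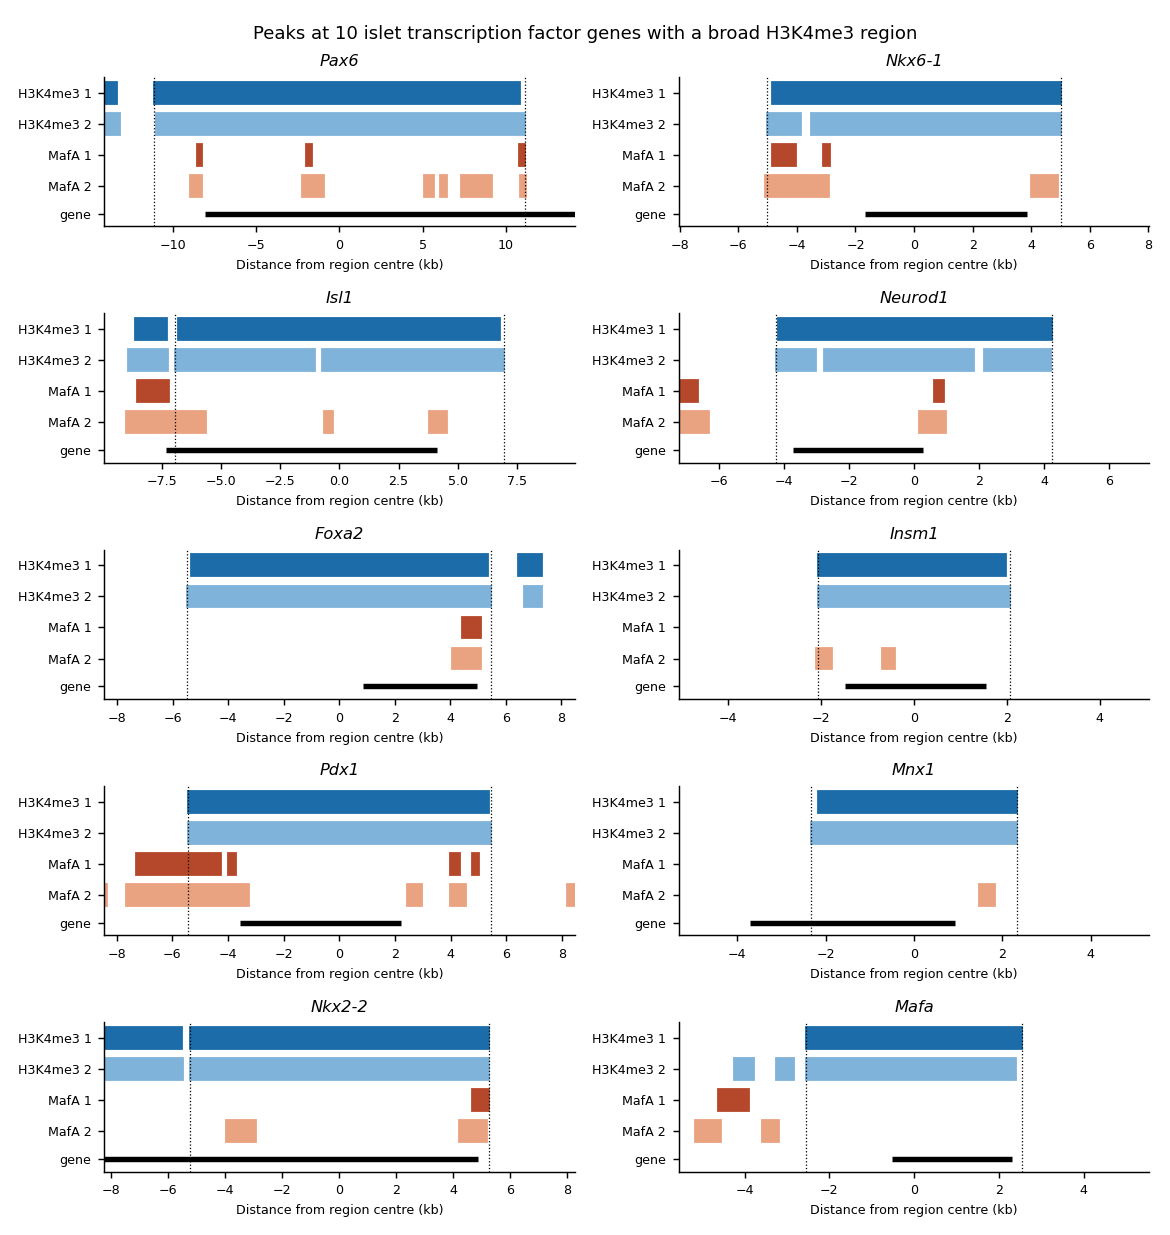
Peaks at the 10 islet factor genes with broad regions, by distance from the region's centre in kb (x axis), with rows for both H3K4me3 replicates (blue), both MafA replicates (red) and the gene body (black), and dotted lines at the region's edges. H3K4me3 runs nearly unbroken in both replicates, MafA peaks of both replicates lie at or across an edge at Pax6, Pdx1, Nkx2-2 and Nkx6-1, and the Mafa region holds none.

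Among secretion genes, 8 of 11 broad regions had a MafA region of both replicates, again near the 65.1% of all broad regions, and those of Chgb, Glp1r and Pcsk1 did not. Slc30a8 had the highest enrichment of those listed, at 11.2 in replicate 1 and 14.9 in replicate 2, followed by mean enrichment by Iapp at 6.51 and 9.49 and Snap25 at 6.93 and 6.42. Ero1b reached 3.47 and 4.74 over its 15259 bp. All 9 immediate early genes with broad regions had one, with Myc at 9.20 and 9.06. Of 4 endoplasmic reticulum genes only Hsp90b1 had one, at 5.11 and 5.43, and Hspa5 and Atf4 had no MafA peak. These counts stand beside the same 65.1%, which was not matched for width, and no difference from it was tested.

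The regions without MafA peaks were not among the very widest, which have more room for a peak. The widest broad regions with no MafA peak in either replicate were those of Bcl11a (7261 bp), of Smc4 and Ift80 with Mir15b and Mir16-2 (6679 bp) and one near Sntg1 (6622 bp, 703 bp from the gene). Tshz1, at 10541 bp, had MafA peaks in replicate 2 only, the strongest at 3.37. At the other extreme, MafA peaks covered 48.7% of the Spc25 region in replicate 1 and 82.0% in replicate 2, and 51.2% and 70.2% of the Zfp516 region, where enrichment was 18.1 and 14.7.

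Promoter windows under MafA peaks were also more frequent at broad regions. Of 772 RefSeq promoter windows inside broad regions, 270 were overlapped by a MafA peak in each replicate (35.0%), against 3185 of 12450 inside narrower regions (25.6%). Windows of neighbouring starts overlap, so these counts are not independent.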

How the data were processed

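Per the labels, CUT&RUN libraries were made from MIN6 cells with H3K4me3, MafA or IgG antibodies, 2 replicates each. The deposited files used were 4 narrow peak lists of single libraries. The submitters' processing notes name MACS2 and the builds GRCm38 and mm10. The MACS2 version, aligner, control library and duplicate handling are not given in the sources used here. As deposited, fold enrichment is the linear ratio between pileup and modelled background at a summit, and the deposited −log10 p and −log10 q values belong to the summit. The deposited score was not used. Peaks under the authors' threshold are not listed.

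H3K4me3 regions were unions of peaks overlapping by 1 bp or more between the replicates, and MafA regions were joined in the same way. The strongest peak of each replicate gave a region's values. Replicate widths are summed peak widths. A gene end is either end of a gene in a RefSeq table of GRCm38.p6, which gives no strand. Starts and promoter sequences came from a RefSeq promoter table of that build. Fragments at summits were recovered from fold enrichment and −log10 p, taking fold enrichment as (pileup + 1) / (background + 1), with 1 scaling factor a library (0.415 and 0.997 for H3K4me3, 1 and 0.746 for MafA), which solved 100% of peaks in 3 libraries and 99.986% in MafA replicate 2. The software was scipy 1.17.1, pandas 2.3.3 and numpy 2.4.6 under Python 3.11.15, with matplotlib 3.10.9 for figures, and the overlap, joining and recovery routines were tested on simulated data.

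Library values were compared by exact two-sided permutation tests. With 2 values a class, such an exact permutation test cannot go below p = 0.333. The members and the 10 gene lists were chosen with earlier results of these data known. The text names the 15 widest broad regions, listed genes at broad regions, the 5 with the highest MafA enrichment by mean rank, the 5 with the most MafA regions, the 3 regions on each side of 4000 bp, and the 3 widest without a gene end or without a MafA peak. Some of these genes are not reported here. Alternatives changed the peak threshold (−log10 q of at least 5), overlap (50% reciprocal), merging within 1 kb, width (3000 or 5000 bp), the stretch common to both replicates, the replicates used, the gene class and the window. The IgG libraries were not analysed here.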

Additional observations from a re-analysis of the deposited data

How the results depend on the processing

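The number of broad regions was 2087 at a width of 3000 bp and 193 at 5000 bp, against 545, and listed genes at broad regions numbered 94 and 24, against 52. Without either H3K4me3 replicate it was 497 to 505, with peaks merged within 1 kb 662, and for the stretch common to both replicates 454. The difference in the share with a MafA region of both replicates was 23.6 percentage points at 50% reciprocal overlap, 21.4 at 3000 bp and 37.7 at 5000 bp, against 31.6. The log2 ratio of MafA enrichment was 0.091 at 3000 bp, 0.44 at 5000 bp, 0.48 on recovered fragments and 0.33 against the narrower regions with H3K4me3 enrichment at or above the broad median, an alternative chosen after seeing the data. The share of regions with a gene end was 81.3% for protein-coding genes alone. The difference in MafA summits within 1 kb of H3K4me3 summits (-0.244) turned positive at −log10 q of at least 5 (1.997), at 3000 bp (4.24), for the common stretch (0.498), without an H3K4me3 replicate (1.21 to 2.57), with MafA replicate 1 alone (1.88, against -2.37 with replicate 2 alone), against protein-coding regions (0.490), against the enrichment-matched regions (1.16) and around protein-coding gene ends (12.8). The cause was not tested. The differences in the share with a peak and in bases covered stayed positive in all settings run, at 21.0 to 32.8 and 2.71 to 7.80 percentage points. Pairing the classes within each MafA library (the replicate block) left these differences at 29.6, 5.41 and -0.244, with exact sign permutation p-values of 0.5, 0.5 and 1, where 0.5 is the smallest possible. The Isl1 region was 7529 bp wide as a common stretch and 15874 bp with merged peaks, and the region at chr15:85668661-85682529 was 8409 to 22457 bp wide. With a median of 25 and 46 fragments at MafA summits, weak MafA sites may be missed, most of all in replicate 1.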

Other observations

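Among the wider broad regions outside the named lists were genes of insulin signalling and lipid synthesis, picked out after their values were seen. Irs2, an adaptor of the insulin receptor, measured 9282 bp in replicate 1 and 9231 bp in replicate 2. Scd2, a fatty acid desaturase gene, measured 9000 and 9212 bp, and Acly, which makes acetyl-CoA from citrate, 8099 and 8158 bp. Each had 2 MafA regions of both replicates over it. At Acly the MafA enrichments were 14.0 and 13.8 in replicates 1 and 2, at Scd2 5.29 and 6.22, and at Irs2 3.90 and 4.78. Vegfa, a vascular growth factor gene, measured 6650 and 6657 bp and had 1 MafA region, at 2.78 and 3.25.

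Histone gene clusters formed broad regions of low height. On chromosome 13, H2ac10, H3c8 and H4c8 shared a region of 7910 bp with H3K4me3 fold enrichments of 10.0 in replicate 1 and 9.42 in replicate 2. H2ac7, H2ac8, H2bc7, H2bc8 and H3c4 shared one of 7261 bp at 5.60 and 7.08, which compares with medians of 23.1 and 20.0 over all broad regions. Histone genes are near-identical copies, so reads there may have been divided among them or dropped, and this was not tested.

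Some of the 545 broad regions lay close to another. In 11 neighbouring pairs the gap was within 10000 bp, among them Cdkn1b and the non-coding Lockd, 363 bp apart. The spacing of narrower regions was not measured, so this count does not show whether broad regions lie closer together than others. The share of H3K4me3 regions that were broad ran from 2.30% on chromosome 1 to 5.30% on chromosome 19, leaving out chromosome Y, which had 2 regions and no broad one.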
